A study of Drosophila melanogaster with 12 samples.

Results

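The genes described here are 7 that meet or regulate the response to oxidative and chemical stress in *Drosophila melanogaster*: the superoxide dismutase genes *Sod1*, *Sod2* and *Sod3*, the catalase gene *Cat*, the transcription factor gene *cnc*, its inhibitor gene *Keap1* and the nuclear receptor gene *Hr96*. They were given by name and found by FlyBase identifier in the gut and fat body count tables, where 7 of 7 were present, of 10358 genes listed for gut, 11056 for fat body and 10005 for both. The study induced *Pnt*RNAi, an RNAi transgene against the ETS transcription factor gene *Pointed*, in adult females of the *S106* driver strain, and asked what the tissues transcribe when this factor is lowered. Poly(A) RNA was sequenced from 12 libraries, 3 each of induced gut, control gut, induced fat body and control fat body, each library made from the organs of 12 flies.

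The flies of all 4 groups carried the *S106* GeneSwitch driver, which acts in gut and fat body and needs the drug RU486, together with the *Pnt*RNAi transgene, in the outbred, *Wolbachia*-free *w1118* Dahomey background described in the methods. They were mated, parted from males and kept for 6 days on food with RU486 (200 µM in the labels, which give this dose for every sample) if induced, or on food with the ethanol vehicle if control. No library came from flies fed RU486 without the transgene, so the effects of drug and RNAi cannot be told apart. Tubules were removed from the gut, and what was called fat body was the abdomen left after the gut and reproductive organs were taken out, which also holds cuticle, oenocytes and muscle. In such bulk samples fewer cells of a type and less RNA per cell cannot be told apart.

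Superoxide dismutases turn superoxide into hydrogen peroxide, and catalase breaks hydrogen peroxide down to water and oxygen. The Sod1 enzyme works in the cytosol, Sod2 in the mitochondrial matrix, Sod3 outside cells and Catalase mainly in peroxisomes. The long isoform of *cnc*, CncC, is the fly counterpart of mammalian Nrf2: Keap1 holds it and hands it to a Cullin-3 ubiquitin ligase for degradation, and oxidants or electrophiles release it to turn on detoxifying genes. Hr96 is a nuclear receptor related to the mammalian receptors for xenobiotics and vitamin D, and is known in the fly gut for control of dietary fat and cholesterol uptake. Most of this control acts on proteins and their activity, which RNA counts do not measure.

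Positions are those of the Ensembl annotation of genome release 6 (BDGP6.54). *Sod1* (FBgn0003462) lies on 3L from 11112281 to 11113740, *Sod2* (FBgn0010213) on 2R from 16772785 to 16773915, *Sod3* (FBgn0033631) on 2R from 11380347 to 11384114 and *Cat* (FBgn0000261) on 3L from 18822604 to 18828188. *Keap1* (FBgn0038475) lies on 3R from 17073942 to 17079945, *cnc* (FBgn0262975) from 23185580 to 23226711 and *Hr96* (FBgn0015240) from 25025235 to 25029351 on the same arm. The union of exons ranged from 735 bases in *Sod1* to 9178 in *cnc*, which has 16 annotated transcripts, so that its count pools CncC with the shorter isoforms. *cnc* also shares 63 exonic bases, 0.686% of its exons, with the opposite-strand genes *Irk1* and *CG46310*, and whether reads were counted by strand is not given in the sources used here.

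Library totals ran from 5916313 to 10254951 counts in gut and from 4932359 to 9580571 in fat body, and the biological coefficient of variation fitted by edgeR was 33.9% in gut and 39.8% in fat body. One control library of each tissue stood apart from its group, 112 in gut and 106 in fat body, and results that rest on either are given with and without it. The targeted gene *pnt* had 25.3, 24.9 and 28.2 CPM (counts scaled to a common library size) in induced guts, against 33.0, 34.9 and 27.5 in control guts. Induced fat bodies gave 7.11, 8.95 and 9.73 CPM of *pnt*, against 9.59, 10.2 and 11.7 in control fat bodies. Neither difference passed a 10% false discovery rate (FDR) by edgeR (log2 fold change −0.31, adjusted p = 0.838 in gut, and −0.30, adjusted p = 0.986 in fat body). Of the gut markers, 10 of 10 in both tables were higher in gut by that test, and 8 of 10 fat body markers and 6 of 6 oenocyte markers were lower in gut. One fat body marker, the lipase gene *bmm*, was higher in gut, with 145 to 271 CPM in gut libraries and 85.8 to 149 in fat body libraries. Summed gut marker CPM ran from 24838 to 47436 in gut libraries and from 17.3 to 71.2 in fat body libraries, and summed fat body marker CPM from 979 to 2175 in gut libraries and from 25978 to 105856 in fat body libraries. *Lsp2*, a larval storage protein gene listed among the fat body markers, stayed at or below 4.54 CPM in every fat body library. Summed muscle marker CPM ran from 2273 to 2723 in gut libraries and from 2771 to 6077 in fat body libraries. Summed ovary marker CPM ran from 31.5 to 2601 in gut libraries and from 85.1 to 397 in fat body libraries. Tubule markers were found in both tissues, with summed CPM of 135 to 335 in gut libraries and 156 to 380 in fat body libraries. Of these 7 markers, 3 were called higher in gut and 1 lower, where 25.5% of all genes were called higher and 27.7% lower. Of 12 muscle markers 1 was called higher and 7 lower, and of 12 ovary markers 1 higher and 4 lower. Of 6 haemocyte markers 1 was called higher and 5 lower, with summed CPM of 35.1 to 76.0 in gut libraries and 119 to 280 in fat body libraries. The part of muscle, ovary, haemocyte and tubule RNA in the results was not tested.

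The first comparison asked how the 7 genes differ between gut and fat body. Levels below are CPM after trimmed-mean (TMM) scaling over the 12 libraries, and log2 differences are gut minus fat body over both treatments from edgeR's quasi-likelihood test, adjusted over all 10005 genes. *Hr96*, *Keap1* and *Sod2* were higher in gut, and *Sod1*, *Sod3*, *Cat* and *cnc* did not pass. This made 3 of 7 genes higher and 0 of 7 lower, where 25.5% of all genes were called higher in gut and 27.7% lower. In 2 of 7 genes, *Hr96* and *Keap1*, every gut library lay above every fat body library, as it did in 15.9% of all genes, while 13.9% lay wholly below.

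**Figure D1:**
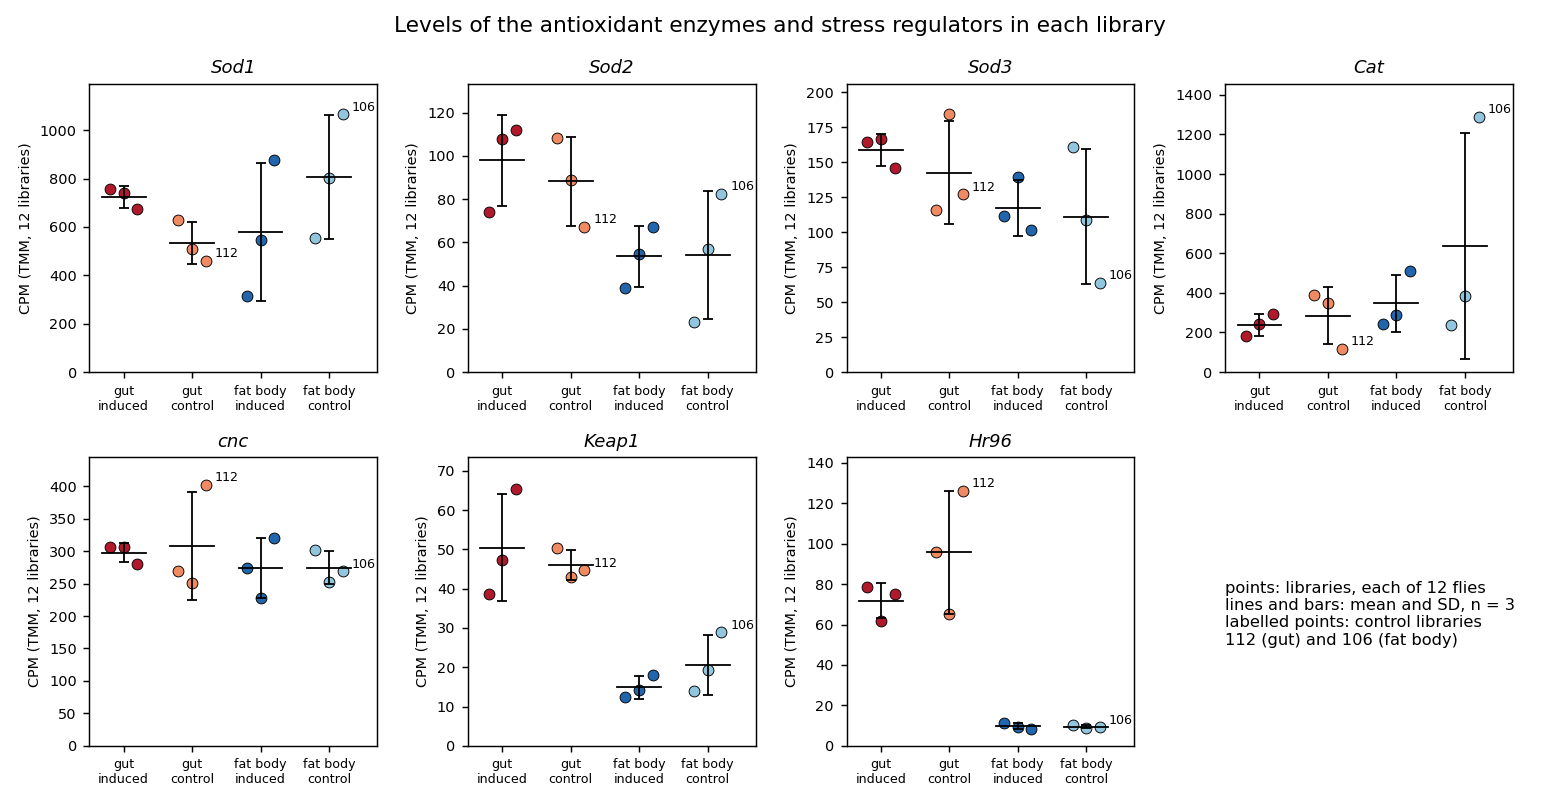
CPM of each gene in each of the 12 libraries (points), with the mean and SD of the 3 libraries of a group (lines and bars) and control libraries 112 and 106 labelled. *Hr96* ran from 61.9 to 126 CPM in gut and from 8.31 to 11.2 in fat body, whereas *Cat* had its highest value, 1288 CPM, in control fat body library 106.

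*Hr96* showed the widest gap between the tissues of the 7. For *Hr96* induced guts gave 78.4, 61.9 and 74.9 CPM and control guts 96.0, 65.1 and 126 CPM, against 11.2, 9.42 and 8.31 CPM for induced fat bodies and 10.3, 8.76 and 9.24 CPM for control fat bodies. The lowest gut library was thus several times above the highest fat body library, and the fat body libraries lay close together, with a coefficient of variation of 28.6% in gut and 10.9% in fat body. The gut level was 8.70-fold the fat body level (95% interval 6.56 to 11.5, log2 difference 3.12, standard error 0.19, adjusted p = 2.3e-08). Raw *Hr96* counts in fat body were 66 to 101 per library, so the gene was detected in each.

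*Keap1*, the brake on CncC, was also higher in gut. For *Keap1* induced guts gave 38.7, 47.3 and 65.3 CPM and control guts 50.3, 43.1 and 44.6 CPM, against 12.3, 14.2 and 18.1 CPM for induced fat bodies and 13.8, 19.2 and 28.9 CPM for control fat bodies. The tissues did not overlap, although the highest fat body library, 106, came within 10 CPM of the lowest gut library, 107. The gut level was 2.74-fold that of fat body (95% interval 2.01 to 3.75, log2 difference 1.46, standard error 0.21, adjusted p = 7.4e-05).

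*cnc*, whose product Keap1 restrains, was at nearly one level in the 4 groups. For *cnc* induced guts gave 307, 306 and 281 CPM and control guts 270, 251 and 403 CPM, against 274, 228 and 320 CPM for induced fat bodies and 302, 253 and 269 CPM for control fat bodies. The groups overlapped throughout, and control gut library 112 was the highest. The log2 difference was 0.14 (95% interval −0.22 to 0.51, or 0.859-fold to 1.42-fold, adjusted p = 0.511). The sign turned under other scalings: −0.070 with upper-quartile factors and −0.23 with total counts alone.

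Dividing one gene by another within a library removes the scaling between libraries. Per kilobase of exon, the count of *cnc* was 2.98, 2.43 and 1.62 times that of *Keap1* in induced guts and 2.02, 2.19 and 3.39 times in control guts, against 8.34, 6.04 and 6.62 times in induced fat bodies and 8.21, 4.94 and 3.50 times in control fat bodies. Every gut library was below every fat body library, by a narrow margin between libraries 112 and 106, the outer ones of their tissues. *Hr96* was 0.828, 0.655 and 0.864 times *cnc* in induced guts and 1.15, 0.839 and 1.01 times in control guts, against 0.132, 0.134 and 0.0841 times in induced fat bodies and 0.110, 0.112 and 0.111 times in control fat bodies. These ratios were picked with the levels known and carry no test. They hold the tissue differences of *Keap1* and *Hr96* given above and are not separate observations. The share of all gene pairs that separate in this way was not computed.

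Of the superoxide dismutase genes, *Sod2* alone passed. For *Sod2*, the mitochondrial enzyme, induced guts gave 73.9, 108 and 112 CPM and control guts 108, 88.8 and 67.3 CPM, against 38.9, 54.6 and 67.1 CPM for induced fat bodies and 23.1, 57.0 and 82.3 CPM for control fat bodies. Fat body library 106 alone lay within the gut range. The gut level was 1.73-fold that of fat body (95% interval 1.14 to 2.62, log2 difference 0.79, standard error 0.28, adjusted p = 0.0332). The call held in 17 of 18 alternative fits and was lost with total counts alone (log2 difference 0.47, adjusted p = 0.143), and without libraries 112 and 106 the difference was 1.09 on the log2 scale.

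For *Sod1*, the most abundant member per length, induced guts gave 758, 742 and 672 CPM and control guts 628, 510 and 459 CPM, against 313, 547 and 878 CPM for induced fat bodies and 553, 802 and 1066 CPM for control fat bodies. The fat body libraries spanned the whole gut range on both sides, with a ratio of 3.40 between the highest and the lowest. The log2 difference was −0.14 (95% interval −0.69 to 0.41, adjusted p = 0.680), and it turned to 0.035 without libraries 112 and 106. For *Sod3*, the extracellular enzyme, induced guts gave 165, 166 and 146 CPM and control guts 116, 185 and 127 CPM, against 111, 140 and 101 CPM for induced fat bodies and 161, 109 and 64.0 CPM for control fat bodies. Its log2 difference of 0.40 (95% interval −0.077 to 0.87) did not pass (adjusted p = 0.158), and it passed only without control fat body library 104 (0.58, adjusted p = 0.0312).

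*Cat* varied most among the 7. For *Cat* induced guts gave 182, 242 and 294 CPM and control guts 389, 348 and 118 CPM, against 240, 288 and 512 CPM for induced fat bodies and 238, 383 and 1288 CPM for control fat bodies. Control library 106 held 43.7% of the summed CPM of the 6 fat bodies, and control library 112 was the lowest of the 6 guts. The log2 difference was −0.85 (95% interval −1.76 to 0.064, adjusted p = 0.119). It passed in 5 of 18 alternative fits, DESeq2 among them (−0.83, adjusted p = 0.0853), but was −0.33 without library 106 and −0.14 without both 106 and 112 (adjusted p = 0.412 and 0.637). Library 106 also had the highest summed fat body marker CPM of its tissue, 105856, against 25978 to 50530 in the other fat bodies, and library 112 the lowest of the guts, 979, against 1174 to 2175. The sum mixes genes of unlike spread and is weighted to yolk protein RNA. In CPM scaled within fat body, *Yp1* ran from 10014 to 65398 and *Lsd-1* from 672 to 2488. There *apolpp* ran from 7850 to 13178 and *FASN1* from 2004 to 4025. The part of fat body cell content in the *Cat* values was not tested.

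Within a library, *Cat* stood higher relative to *Sod2* in fat body, in a ratio also picked with the levels known. Per kilobase of exon its count was 1.25, 1.14 and 1.34 times that of *Sod2* in induced guts and 1.83, 1.998 and 0.895 times in control guts, against 3.14, 2.69 and 3.88 times in induced fat bodies and 5.25, 3.42 and 7.97 times in control fat bodies. No gut library reached the lowest fat body library. The ratio of *Sod2* to *Sod1* ran from 0.0706 to 0.126 in gut and from 0.0302 to 0.0899 in fat body, and here the tissues overlapped. They also overlapped in the ratio of *Cat* to *Sod1*, 0.0884 to 0.252 in gut and 0.159 to 0.446 in fat body. The same held for *Sod3* to *Sod1*, 0.0672 to 0.132 in gut and 0.0219 to 0.130 in fat body.

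**Figure D2:**
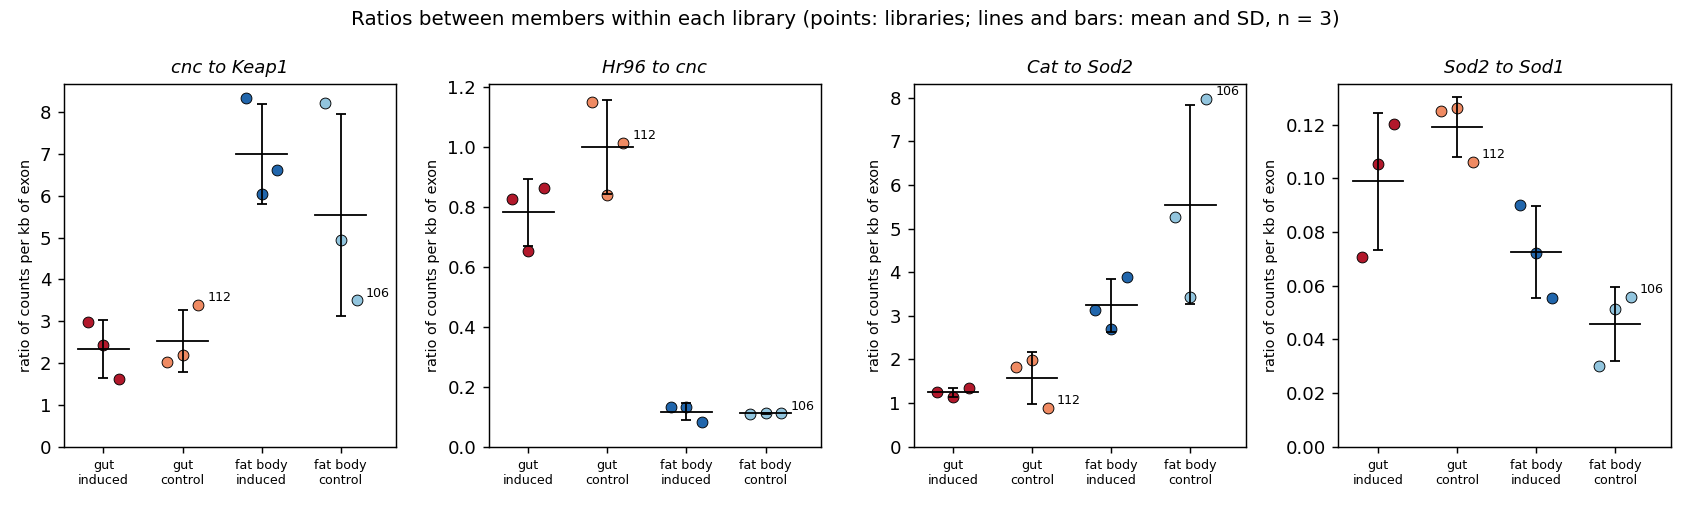
Ratios of counts per kilobase of exon between pairs of the 7 genes within each library (points), with the mean and SD of the 3 libraries of a group. The ratio of *cnc* to *Keap1* ran from 1.62 to 3.39 in gut and from 3.50 to 8.34 in fat body, and that of *Cat* to *Sod2* from 0.895 to 1.998 in gut and from 2.69 to 7.97 in fat body.

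Ordered by mean level per kilobase of exon, the enzymes stood above the regulators in both tissues, although in fat body *Sod2* exceeded *cnc* in 5 of 6 libraries. The length used for *cnc*, 9178 bases, is the union of exons of 16 annotated transcripts, and its level per kilobase depends on that choice. In gut, *Sod1* had 855 ± 166 CPM per kb, followed by *Cat* with 132 ± 51.2, *Sod2* with 91.6 ± 19.0, *Sod3* with 74.7 ± 12.9, *cnc* with 33.0 ± 5.81, *Hr96* with 29.6 ± 8.47 and *Keap1* with 13.99 ± 2.68 (SD, n = 6 libraries). The ranges of *Cat* and *Sod2*, of *Sod2* and *Sod3*, and of *cnc* and *Hr96* overlapped. Within gut libraries *Cat* exceeded *Sod2* in 5 of 6, *Sod2* exceeded *Sod3* in 4 of 6 and *cnc* exceeded *Hr96* in 4 of 6. In fat body the order was *Sod1* with 943 ± 370 CPM per kb, *Cat* with 247 ± 203, *Sod3* with 56.7 ± 16.5, *Sod2* with 53.0 ± 20.5, *cnc* with 29.9 ± 3.62, *Keap1* with 5.15 ± 1.75 and *Hr96* with 3.36 ± 0.37 (SD, n = 6). There the neighbours overlapped except *Cat* with *Sod3* and *cnc* with *Keap1*, although *Sod1* exceeded *Cat* in 6 of 6 libraries. Among all genes of a tissue ranked per kilobase, *Hr96* stood at the 77.6th percentile in gut and the 29.4th in fat body, *Keap1* at the 62.9th in gut and the 39.3rd in fat body, and *cnc* at the 79.4th in gut and the 79.8th in fat body.

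The tissue difference was also fitted within each treatment. Between induced tissues, *Hr96* (7.46-fold, log2 difference 2.90, adjusted p = 2.3e-06) and *Keap1* (3.38-fold, 1.76, adjusted p = 0.000454) were higher in gut, where 21.0% of all genes were higher and 22.7% lower. *Sod2* narrowly missed the threshold there by edgeR (log2 difference 0.87, adjusted p = 0.104). The 3 induced guts lay above the 3 induced fat bodies in 4 of 7 genes, *Hr96*, *Keap1*, *Sod2* and *Sod3*. Of these *Sod3* was well short of a call (log2 difference 0.43, adjusted p = 0.304 by edgeR). The share of all genes that separated in this way was not computed. Between induced tissues *Sod2* passed in 7 of 18 alternative fits, DESeq2 among them (log2 difference 0.93, adjusted p = 0.0656). Control library 106 enters that comparison only through the shared fit, and without it the difference stayed at 0.87 (adjusted p = 0.0575 by edgeR). For control tissues *Sod2* passed in 2 of 18, among them the fit without library 106 (1.14, adjusted p = 0.0344, against 0.70 and 0.205 with all libraries). Between control tissues, *Hr96* (10.1-fold, log2 difference 3.34, adjusted p = 7.3e-07) and *Keap1* (2.23-fold, 1.16, adjusted p = 0.00779) passed again, where 19.9% of all genes were higher and 18.3% lower. *Cat* had a log2 difference of −0.54 between induced tissues and of −1.16 between control tissues (adjusted p = 0.519 and 0.171), and the value between control tissues became 0.25 without libraries 112 and 106.

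**Figure D3:**
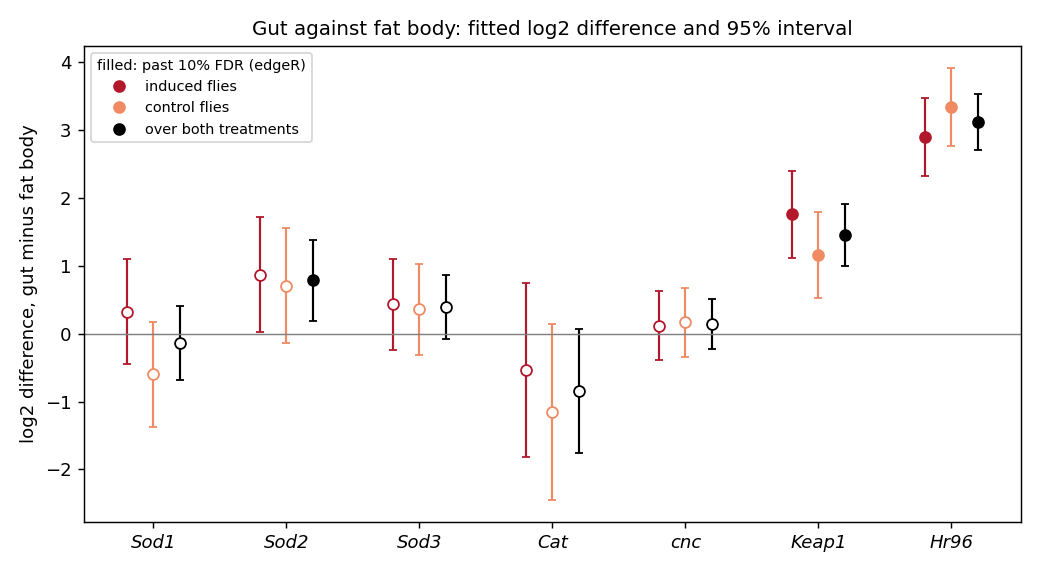
Log2 difference, gut minus fat body, of each gene with its 95% interval from edgeR, in induced flies, in control flies and over both treatments (filled points passed 10% FDR). *Hr96* and *Keap1* were past the threshold in the 3 comparisons and *Sod2* over both treatments only.

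Scaling matters for a comparison of tissues whose dominant transcripts differ. TMM factors over the 12 libraries were 0.807 to 1.02 in gut and 0.918 to 1.30 in fat body. With total counts alone the median log2 difference of all genes moved to −0.40, against −0.036 with TMM, and with upper-quartile factors to −0.24, and the share of calls that were higher in gut fell to 29.2% and 36.0%, against 47.9%. *Hr96* and *Keap1* stayed past the threshold in 18 of 18 alternative fits, with log2 differences of 2.73 to 3.23 and 1.12 to 1.63.

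Did induction of *Pnt*RNAi change these genes? No member passed in gut, where edgeR called 5 of 10358 genes, or 0.0483%, all of them higher and none of them one of the 7. At an unadjusted p under 0.05 the gut comparison had 562 genes and 0 of the 7. *Sod1* came nearest: its 3 induced guts, 758, 742 and 672 CPM, lay above its 3 control guts, 628, 510 and 459, a pattern shared by 5.23% of all genes, while 4.67% lay wholly below. The log2 fold change of *Sod1* was 0.42 (95% interval −0.10 to 0.94, adjusted p = 0.836), and it stayed between 0.32 and 0.57 in 17 alternative fits. *Hr96* was lower in induced guts on average, 71.7 ± 8.71 against 95.8 ± 30.5 CPM (SD, n = 3 each), with overlapping libraries and a log2 fold change of −0.43 (95% interval −1.03 to 0.16, adjusted p = 0.836), which became −0.19 without library 112.

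The other gut values lay close to no change or varied widely. *Sod2*, *Sod3* and *Keap1* had log2 fold changes of 0.13, 0.13 and 0.11, with 95% intervals of −0.48 to 0.73, −0.43 to 0.69 and −0.44 to 0.66. That of *cnc* was −0.066 (95% interval −0.61 to 0.47), and without library 112, its highest gut library, it was 0.17. *Cat* averaged 239 ± 56.1 CPM in induced guts and 285 ± 146 CPM in control guts (SD, n = 3 each), a log2 fold change of −0.29 (95% interval −1.28 to 0.70, adjusted p = 0.885). Without library 112 the *Cat* value was −0.65 with a 95% interval of −1.18 to −0.12, not called by edgeR (adjusted p = 0.131) but called by DESeq2 (−0.63, adjusted p = 0.0658), among 879 genes called by edgeR and 1918 by DESeq2 in that comparison.

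In fat body, edgeR called 0 of 11056 genes (0.0%) and DESeq2 16, with 302 genes at an unadjusted p under 0.05 by edgeR and none of the 7 among any of these. *Cat* averaged 347 ± 145 CPM in induced fat bodies and 636 ± 569 CPM in control fat bodies (SD, n = 3 each), and its log2 fold change of −0.89 had a 95% interval of −2.35 to 0.57 (adjusted p = 0.986). Without library 106 the direction turned, to 0.17. *Sod1* and *Keap1* had log2 fold changes of −0.49 and −0.48, with 95% intervals of −1.43 to 0.45 and −1.23 to 0.28. They were −0.21 and −0.14 without library 106, the highest library for both genes. Other omissions made them larger, to −0.93 for *Sod1* without induced library 103 and −0.69 for *Keap1* without control library 104. In 17 alternative fits neither gene was called. *Sod2*, *Sod3*, *cnc* and *Hr96* lay between −0.019 and 0.072, the interval of *cnc* being −0.51 to 0.49 and that of *Hr96* −0.59 to 0.64. In no member did the 3 induced fat bodies lie wholly above or below the 3 control fat bodies, as they did in 4.29% and 3.87% of all genes.

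**Figure D4:**
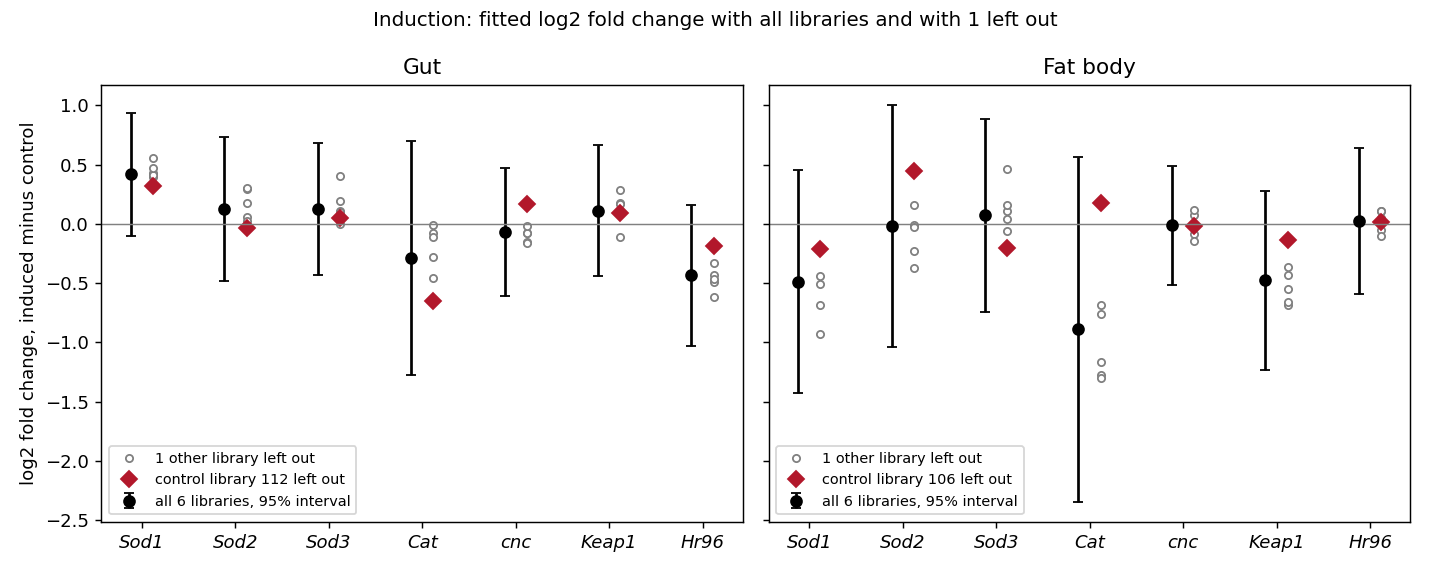
Log2 fold change of each gene on induction in gut and in fat body with its 95% interval (black), with 1 library left out (open points) and with control library 112 or 106 left out (diamonds). Every interval from all libraries spans 0, and *Cat* in fat body is −0.89 with all libraries and 0.17 without library 106.

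The difference between the tissues in their response was tested as an interaction, which called 0 of 10005 genes (0.0%, with 342 at an unadjusted p under 0.05, and 13 called by DESeq2) and 0 of the 7. *Sod1* had the smallest p of the members. Its log2 fold change was 0.92 higher in gut than in fat body (95% interval −0.18 to 2.02, adjusted p = 0.999 by edgeR). For *cnc* and *Sod3* the interaction was −0.046 and 0.075, and for *Cat* 0.62, which turned to −0.78 without libraries 112 and 106.

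No partner of Cnc or Keap1 passed on induction with all libraries. Of all genes, edgeR called 0.0483% in gut and 0.0% in fat body, so a count of 0 sets no list apart. The same shares stand beside the induction counts of the lists below. Of 8 such genes, among them *maf-S*, the small Maf partner of Cnc, *Cul3* and *Roc1a*, parts of the ubiquitin ligase, and *ref(2)P*, the fly p62, 0 of 8 passed in either induction comparison. The smallest p belonged to *Roc1a* and *maf-S* in gut (log2 fold change 0.44 and 0.31, adjusted p = 0.836 and 0.854), and to *maf-S* and *Nedd8* in fat body (−0.26 and 0.27, adjusted p = 0.986 for each). The median of the list was 0.11 in gut and −0.045 in fat body, beside −0.058 in gut and −0.048 in fat body over all genes. With library 112 left out, DESeq2 called *Atg8a*, *Roc1a* and *maf-S* higher in gut, beside 919 higher and 999 lower over all genes, and edgeR called none of the 8. Between tissues *maf-S* was higher in gut (log2 difference 0.51, adjusted p = 0.0391) and *fs(1)h*, a bromodomain gene, lower (−0.54, adjusted p = 0.0337), and the libraries of both genes overlapped; these were named after their values were seen.

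The known targets of Cnc and Keap1 form a list of 22 that holds glutathione S-transferase genes, cytochrome P450 genes, juvenile hormone epoxide hydrolase genes and others. On induction, 0 of 22 passed by edgeR in either tissue. The median log2 fold change was 0.20 in gut, with 16 of 22 above 0, and −0.26 in fat body, with 5 of 22 above 0, beside −0.058 in gut and −0.048 in fat body over all genes. In 7 of 22 genes the 3 induced guts lay wholly above the 3 control guts and in none wholly below, against 5.23% and 4.67% of all genes. The 3 induced guts had, from lowest to highest, 14.4, 21.2 and 128 CPM of *GstD2*, against 2.29, 2.36 and 3.29 in control guts (log2 fold change 4.35, standard error 0.86, adjusted p = 0.512 by edgeR), and 32.5, 35.8 and 65.2 CPM of *GstD10*, against 3.53, 9.28 and 14.5 (2.29, standard error 0.50, adjusted p = 0.727). DESeq2 called these and none of the other 20, and *GstD* genes are close paralogs that may share reads.

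The values of this list moved when a control library was left out. Without library 112 edgeR called 4 of 22 higher (*GstD2*, *GstD10*, *GstE1* and *Cyp6a8*) and 0 lower, beside 231 higher and 648 lower over all genes, and the list's median was 0.43. In fat body the smallest p belonged to *Cyp6a2* and *Jheh1* (log2 fold change −1.56 and −0.87, adjusted p = 0.986 for each), and *Cyp6a2* stood at 14.2, 15.3 and 18.5 CPM in induced fat bodies, against 12.2, 18.6 and 110 in control fat bodies. Without library 106 the list's fat body median was 0.022 and the value of *Cyp6a2* turned to 0.070. The difference between tissues was not called in any of the 22 genes by the interaction test.

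**Figure D5:**
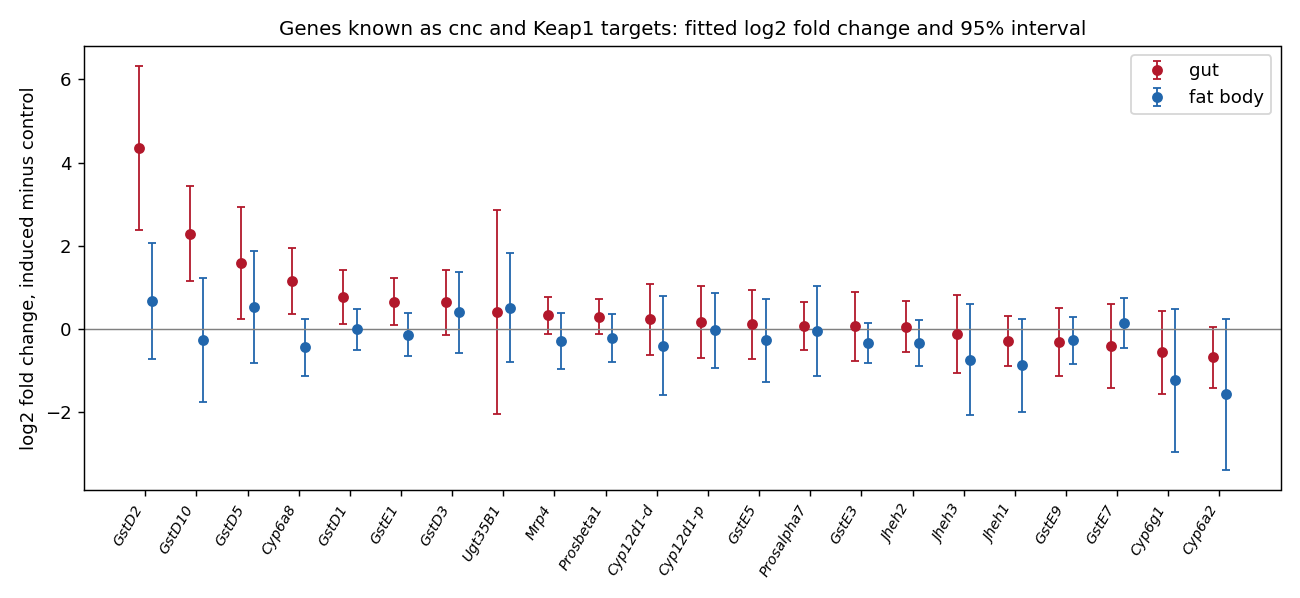
Log2 fold change on induction, with 95% intervals from edgeR, of the 22 listed target genes of Cnc and Keap1 in gut and in fat body, ordered by the gut value. *GstD2* (4.35) and *GstD10* (2.29) head the gut values, and none of the 22 passed 10% FDR in either tissue.

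Between tissues 14 of 22 genes of the same list were higher in gut and 2 lower by edgeR, where 25.5% of all genes were higher and 27.7% lower, with a median of 1.52 beside −0.036 over all genes. In 8 of 22 every gut library lay above every fat body library and in 1 of 22 below, against 15.9% and 13.9% of all genes. *Jheh3* ran from 108 to 277 CPM in gut and from 3.57 to 18.4 in fat body (log2 difference 4.65, adjusted p = 1e-06), and *GstD5* from 4.87 to 46.3 CPM in gut and from 0.342 to 0.846 in fat body (4.53, adjusted p = 3.3e-06). *GstE1* went the other way, with 25.5 to 59.6 CPM in gut and 80.2 to 126 in fat body (−1.43, adjusted p = 1.7e-05). *cnc* itself did not pass the same test.

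Of the genes tied to Hr96 in lipid handling, 10 of 15 tested were higher in gut and 4 lower, where 25.5% of all genes were higher and 27.7% lower, and the median was 1.86 beside −0.036 over all genes. *Npc1b*, the sterol transporter of the absorbing gut, ran from 519 to 1355 CPM in gut and from 0.338 to 2.01 in fat body (log2 difference 9.45, adjusted p = 2.5e-09), and *mag*, the digestive lipase and sterol esterase gene *magro*, which is also among the gut markers above, from 1980 to 3027 CPM in gut and from 2.71 to 7.87 in fat body (9.20, adjusted p = 7.8e-10). *Npc2h* and *Npc2g*, of the NPC2 family of sterol-binding proteins, were lower in gut (−6.37 and −6.04). On induction 0 of 16 passed in gut and 0 of 15 in fat body. *Npc1b* stood at 519, 668 and 680 CPM in induced guts, given from lowest to highest, against 702, 970 and 1355 in control guts (log2 fold change −0.72, adjusted p = 0.836), the smallest p of the list, followed by *Npc2c* (−1.64, adjusted p = 0.836). In fat body these were *Npc2e* (−1.67) and *Npc2b* (−0.33), each with an adjusted p of 0.986. With library 112 left out, DESeq2 called *Cyp12a5* higher and *Npc1b* lower in gut, beside 919 higher and 999 lower over all genes, and edgeR called none.

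Of other enzymes that remove peroxides or keep thiols reduced, 6 of 16 tested were higher in gut and 5 lower, where 25.5% of all genes were higher and 27.7% lower, with a median of 0.11 beside −0.036 over all genes. *Trxr1*, the thioredoxin reductase that in flies also keeps glutathione reduced, ran from 62.3 to 140 CPM in gut and from 16.1 to 42.9 in fat body (log2 difference 1.96, adjusted p = 4.5e-05), and *Prx4*, a peroxiredoxin gene, was higher in gut by 1.65. *Irc*, the immune-regulated catalase gene, was lower, with 5.54 to 11.4 CPM in gut and 136 to 325 in fat body (−4.74, adjusted p = 1.6e-08), as was the peroxiredoxin gene *Prx6b* (−2.17). On induction 0 of 16 passed in either tissue. *MsrA*, a methionine sulfoxide reductase gene, stood at 60.2, 81.6 and 82.4 CPM in induced fat bodies, against 122, 134 and 140 in control fat bodies (log2 fold change −0.82, adjusted p = 0.986 by edgeR), the smallest p of the list there. The next smallest p in fat body was that of *Prx6c* (−0.47), and in gut those of *Gtpx* (0.46, adjusted p = 0.836) and *Prx4* (0.55, adjusted p = 0.836). With library 112 left out, edgeR called *Prx4* higher and *Trxr1* lower in gut, beside 231 higher and 648 lower over all genes. DESeq2 without that library called *Gtpx*, *Prx3*, *Prx4* and *Trx2* higher and *Trxr1* lower, beside 919 higher and 999 lower over all genes.

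Of the genes of glutathione and NADPH supply, 5 of 8 were higher in gut and 0 lower, where 25.5% of all genes were higher and 27.7% lower, with a median of 1.19 beside −0.036 over all genes. *Gclc*, the catalytic subunit of the enzyme that limits glutathione synthesis, ran from 162 to 197 CPM in gut and from 43.7 to 78.1 in fat body (log2 difference 1.74, adjusted p = 7.2e-07). On induction 0 of 8 passed in either tissue, with medians of −0.45 in gut and in fat body. The fat body median turned to 0.47 without library 106. Without library 112 the gut median was −0.74, beside −0.031 over all genes. In that fit edgeR called 3 of 8 (*Ggt-1*, *Idh* and *Pgd*) lower and 0 higher, beside 648 lower and 231 higher over all genes. *Idh*, the NADP-dependent isocitrate dehydrogenase gene, had log2 fold changes of −0.54 in gut and −0.84 in fat body, *Pgd* of −0.58 in gut and *Gclc* of −0.33 in fat body, none of which passed with all libraries.

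Metal handling bears on these enzymes because free iron turns peroxide into hydroxyl radicals. Of 11 genes tested, 6 were higher in gut and 3 lower, where 25.5% of all genes were higher and 27.7% lower, with a median of 0.51 beside −0.036 over all genes. The metallothionein gene *MtnC* ran from 210 to 753 CPM in gut and from 1.95 to 8.64 in fat body (log2 difference 6.67, adjusted p = 7.4e-08), *MtnB* was higher by 6.06, and the transferrin genes *Tsf1* and *Tsf3* were lower in gut (−4.41 and −3.59). On induction 0 of 11 passed in either tissue, the smallest p belonging to *MTF-1* (−0.37) and *Mvl* (0.31) in gut and to *Tsf1* (0.72) and *MtnC* (0.86) in fat body. Of 4 genes for sources of oxidants, *Nox* was higher in gut (1.09) and *Duox* and its maturation factor *mol* lower (−1.84 and −1.08), in libraries that overlapped, named after their values were seen. None of the 4 passed on induction, *mol* and *Duox* having log2 fold changes of −0.77 and −1.33 in gut and *mol* and *ry* of 0.62 and −0.21 in fat body. With library 112 left out, DESeq2 called *IscU*, *MtnA*, *MtnC* and *MtnD* higher and *Duox* lower in gut, beside 919 higher and 999 lower over all genes. EdgeR called none of these lists there.

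To describe how the members varied among libraries of one tissue, each tissue's mean log2 CPM was subtracted and the remainder correlated over the 12 libraries with 5488 genes that averaged at least 10 CPM in each tissue. The genes most like *Cat* were *eEF2*, a translation elongation factor gene (Pearson r = 0.992), and *Yp1*, a yolk protein gene (r = 0.990), which were 0.968 and 0.963 over the 10 libraries without 112 and 106. *Sod1* was most like the ribosomal protein genes *RpS19a* (r = 0.962) and *RpS7* (0.953), and *Sod2* like *AspRS*, an aspartyl-tRNA synthetase gene (0.988), and *Rpn11*, a proteasome subunit gene (0.982). *Sod3* was most like *cup*, a translational repressor gene of the germline (0.941), and *l(3)73Ah* (0.933), *cnc* like *CG11400* (0.927) and the metallothionein gene *MtnD* (0.912), *Keap1* like *Smg5*, a gene of nonsense-mediated decay (0.944), and *PAPLA1*, a phospholipase gene (0.937), and *Hr96* like *CG6454* (0.948) and *Nak* (0.926). Without libraries 112 and 106 the r of these pairs of *Sod1* and *Sod2* was 0.930 to 0.987, and that of the pairs of *Sod3*, *cnc*, *Keap1* and *Hr96* 0.817 to 0.914, lowest for *cnc* with *MtnD* and *Hr96* with *Nak* (0.817 each). Within fat body alone *Hr96* and *Nak* had r = 0.488 over 6 libraries. Values of one library share its depth and scaling, and these likenesses were the highest of many searched, so they are given without a p.

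Among the members themselves, *Cat* and *Keap1* (r = 0.799), *Cat* and *Sod2* (0.786) and *Keap1* and *Sod2* (0.739) were high in the same libraries of a tissue, and were 0.658, 0.700 and 0.640 without libraries 112 and 106. *Sod3* ran against them, with r = −0.630 to *Cat*, −0.636 to *Sod2* and −0.729 to *Keap1*, which were −0.581, −0.643 and −0.495 without those libraries. For *cnc* and *Keap1* r was −0.082 over 12 libraries and 0.011 over 10. These are descriptions over libraries that share depth, scaling and dissection, with no p.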

How the data were processed

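Poly(A) RNA of 12 gut and fat body libraries was sequenced by the authors, who, per their methods, removed duplicates by molecular identifier (Je 1.2), aligned reads to genome 6.19 (HiSat2 2.1) and counted them per gene (featureCounts 1.6). The deposited tables hold raw counts per gene and library, without undetected genes and genes left out of a companion experiment, and a variance-stabilised score on a log2-like scale made by the authors with DESeq2. Samples were grouped by the tissue and induction labels. Replicates are separate pools of 12 flies.

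Counts were tested with edgeR 4.0.16 (TMM, quasi-likelihood F-test, Benjamini-Hochberg, 10% FDR), on the 6 libraries of a tissue for induction and on 12 libraries and 10005 shared genes for tissue and interaction. Intervals are 95% intervals of the fit. CPM came from the fit of 12 libraries, and per-kilobase values divide by the union of exons. Log2 CPM used a prior count of 1. The code was tested on simulated data. Alternatives were DESeq2 1.42.0, limma 3.58.1 on the deposited score, other size factors, a filter on low counts, 5% FDR and leaving out each library. The members and lists were chosen with earlier results of these data known. Named genes were the 7 members, and per list those past 10% FDR, or else the 2 with the smallest p in a tissue, and up to 2 in each direction with the largest difference between tissues and no overlap. The listed names *caud* and *Cyp6d1* were not matched and not used here.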

Additional observations from a re-analysis of the deposited data

Results flagged for a closer look

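Over the 14 sets of 6 libraries, 7 genes in 2 tissues, a library stood outside the others of its tissue by Dixon's criterion in 2 sets, where chance gives about 1 in 20. *Cat* stood at 1288 CPM in control fat body library 106, a gap of 0.740 of the range, the other 5 running from 238 to 512. *cnc* stood at 403 CPM in control gut library 112, a gap of 0.635 of the range, the other 5 running from 251 to 307. No member had opposite, fully separated effects of induction in the 2 tissues.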

How the results depend on the processing

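Over the 6 comparisons and their alternatives, 714 refitted log2 differences of the 7 genes were compared with the main ones: 647 kept direction and side of the threshold, 20 gained a call, 1 lost it (*Sod2* between tissues with total counts alone) and 46 turned sign, none of these being a call. Of 667 such values of other named genes, 645 kept both, 17 gained a call and 5 turned sign. Each group had 3 libraries, with a fitted variation of 33.9% in gut and 39.8% in fat body, which limits the precision of each fold change. The spread that enters the tests is that between pools of flies. The causes of the changes below were not tested. No paired analysis was possible because the labels give the libraries no replicate numbers. The tissue and interaction tests took the 12 libraries as independent. Whether gut and fat body pools came from the same flies is not given in the sources used here.

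Induction in gut gave 5 calls, against 0 at 5% FDR, 43 with DESeq2, 1918 with DESeq2 without library 112 (1 of the 7, *Cat*), and 0 to 879 with 1 library left out. Induction in fat body gave 0 calls, against 1 in a fit of 12 libraries, 16 with DESeq2, 84 with DESeq2 without library 106, and 0 to 2 with 1 library left out. The interaction gave 0 calls, against 13 with DESeq2, 3 with total counts alone and 0 to 3 with 1 library left out. Gut minus fat body in controls gave 5927 calls without libraries 112 and 106, against 3824. With 1 library left out, 3 to 5 of the 7 genes were called between tissues over both treatments, beside 4794 to 5942 of all 10005 genes. In controls 2 to 4 of the 7 were called, beside 3157 to 4735 of all 10005 genes.

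These sign turns were seen. With total counts alone, gut minus fat body was −0.23 for *cnc*, −0.12 for *cnc* in controls and −0.35, −0.14 and −0.060 for *cnc*, *Sod1* and *Sod3* in induced flies, and the interaction was −0.12 for *Sod2* and −0.14 for *Sod3*. With upper-quartile factors, gut minus fat body of *cnc* was −0.070 over both treatments, −0.036 in controls and −0.10 in induced flies. With limma on the deposited score, *Sod2* was 0.11 on induction in fat body. The next 2 choices were made after seeing the data. DESeq2 gave, without library 112, −0.0099 for *Sod2* and 0.19 for *cnc* on induction in gut, and, without library 106, 0.43 for *Sod2*, −0.20 for *Sod3*, 0.17 for *Cat* and 0.066 for *Cyp6a2* on induction in fat body. Without libraries 112 and 106 together, *Sod1* was 0.035 between tissues, *Cat* 0.25 and *cnc* −0.091 between control tissues, and the interaction −0.43 for *Sod2*, −0.78 for *Cat* and 0.21 for *cnc*.

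With 1 library left out, log2 fold changes on induction in gut ran from −0.033 to 0.30 for *Sod2*, −0.0047 to 0.40 for *Sod3*, −0.16 to 0.17 for *cnc*, −0.11 to 0.28 for *Keap1* and −1.86 to 0.35 for *Duox*. In fat body they ran from −0.38 to 0.44 for *Sod2*, −0.20 to 0.46 for *Sod3*, −1.30 to 0.17 for *Cat*, −0.15 to 0.12 for *cnc*, −0.10 to 0.11 for *Hr96*, −0.017 to 0.54 for *Nedd8*, −2.02 to 0.070 for *Cyp6a2* and −2.40 to 0.32 for *Npc2e*. Gut minus fat body ran from −0.29 to 0.10 for *Sod1*, and in controls from −0.076 to 0.29 for *cnc*. The interaction ran from −0.27 to 0.53 for *Sod2*, −0.29 to 0.35 for *Sod3*, −0.41 to 1.07 for *Cat* and −0.17 to 0.20 for *cnc*.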
